A study of Spodoptera frugiperda with 6 samples.

Results

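The predicted miRNAs of the fall armyworm, Spodoptera frugiperda, are described here as the rows of the count table that carry no miRBase name. miRBase is the public registry of miRNAs, and a row without a name is a hairpin that miRDeep2, a program that looks for precursor-shaped stacks of small RNA reads on a genome, proposed from these libraries. Of 172 rows, 63 had no miRBase name. Spodoptera_mature_01, which has the sequence of bantam, was set aside, which left 62 rows. Because copies of a sequence repeat its counts, each sequence was taken once, which gave 50 distinct predicted sequences of 128 distinct sequences in all. The remaining 109 rows, with 78 distinct sequences, carry a miRBase name and are called named sequences.

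Small RNA was sequenced from whole larvae of a strain resistant to diamide insecticides and of a susceptible colony from a commercial supplier, both kept on artificial diet. Each strain has 3 libraries, each made from a separate pool of 100 larvae aged 3 to 5 days, and the study asks which miRNAs differ between the strains. Each strain is a single line, so strain and its breeding history cannot be told apart, and every direction below is resistant over susceptible by the strain labels. The counts cannot check those labels, and if they or the order of the ratio were exchanged, higher and lower would change places throughout. The libraries held 388273 to 937481 counts with each sequence taken once, and 1 count equals 1.07 to 2.58 CPM (counts per 1000000 counts of a library). In whole animals fewer cells of a type and less RNA per cell cannot be told apart. Markers of muscle (miR-133), nervous system (miR-124), sense organs (miR-263b-5p) and gut (miR-281-5p, miR-375-5p) were detected in every library, with at least 16 counts each.

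A miRNA is cut from a hairpin in a longer transcript, first by Drosha in the nucleus and then by Dicer in the cytoplasm. One arm of the hairpin, the mature strand, is loaded into Argonaute and the other, the star strand, is usually lost. The seed, bases 2 to 8 of the mature strand, pairs with target mRNAs, so sequences with the same seed are grouped as a family, and Argonaute favours a U at the first base. Neighbouring hairpins are often cut from a single transcript. Registries hold conserved and abundant miRNAs more completely than lineage-specific ones, and fragments of tRNA or other RNAs can also resemble a hairpin.

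The most abundant predicted sequences are shown first, since they hold most of the counts, with bases 2 to 8 in capitals and written 5′ to 3′.
Spodoptera_mature_60: aUUCCAAUguucguuagugauaua
Spodoptera_mature_02: cGGCUCAUcguauggcaguuugc
Spodoptera_mature_03: uAUCACAUugaaauuuuggcgag
Spodoptera_mature_04: cGCGGUCCuggaauucguuagc
Spodoptera_mature_54: cCCUUUUCguguuuuauuaac
Spodoptera_mature_56: cUCAGUAUuacuuuggaccca
Among the 50 sequences there were 47 distinct seeds, and 44 sequences shared their seed with no named sequence.

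The exceptions fall into 3 seed groups, shown with their named relatives. The seed CCCUGUA was shared by Spodoptera_mature_18, 20 and 47 and by sfr-miR-2756-5p. The seed GAACACA was shared by Spodoptera_mature_26 and 51 and by miR-317, and the seed UUAGAAU by Spodoptera_mature_28 and miR-927.
Spodoptera_mature_18: aCCCUGUAgauccgaacuuuau
Spodoptera_mature_20: aCCCUGUAgauccgaacuuuaa
Spodoptera_mature_47: aCCCUGUAgaaccgagacuuuau
sfr-miR-2756-5p: aCCCUGUAgcugcuaaggggcg
pxy-miR-10-5p: uACCCUGUagauccgaauuugu
Spodoptera_mature_26: uGAACACAacccuuggacuagu
Spodoptera_mature_51: uGAACACAgcccuuggauuagu
bmo-miR-317-5p: uGAACACAgcuggugguaucucagu
Spodoptera_mature_28: aUUAGAAUcaguacgcuuuguc
bmo-miR-927-5p: uUUAGAAUuccuacgcuuuacc
Counting from 1 at the 5′ end, Spodoptera_mature_18 and 20 differ by U22A, and Spodoptera_mature_26 and 51 by A9G and C18U. Spodoptera_mature_18 shares a run of 16 nt with pxy-miR-10-5p, a Hox-cluster miRNA and the most abundant sequence of the table at 173038 CPM, but starts 1 base later, so the seeds are not the same. At 62.5 CPM for Spodoptera_mature_18 and 56.7 CPM for Spodoptera_mature_20, reads of such near-identical sequences could have been split by the counting, and these values are uncertain to that degree. Spodoptera_mature_18 and 20 also share a 14-nt run with the star arm listed for miR-993a.

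Sequence relations beyond whole seeds were few. Spodoptera_mature_60 and its neighbour sfr-miR-10460-5p share an 18-nt run, in capitals below, that starts at the fourth base of both.
Spodoptera_mature_60, shared run: auuCCAAUGUUCGUUAGUGAUaua
sfr-miR-10460-5p, shared run: gagCCAAUGUUCGUUAGUGAUg
Their seeds differ, because the bases before the run differ. Spodoptera_mature_03 shares bases 2 to 7 with miR-2, miR-13, miR-11 and miR-308, families with the seed AUCACAG, and departs from them at base 8, the last of its seed. Over bases 2 to 7, 10 predicted sequences matched a named sequence, against 6 over bases 2 to 8. The letters GUUCGA, found in the T-arm of many tRNAs, occurred in 1 predicted sequence and in 0 named sequences.
Spodoptera_mature_24, letters in capitals: GUUCGAuucccgggucgggg
Spodoptera_mature_24 is 20 nt long with a GC content of 70.0% and had 57 counts over all libraries. A match of 6 letters is a description and does not assign an origin.

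The predicted sequences held few of the counts. Summed over the 6 libraries they had 43785 of 3983389 counts, or 1.10% (exact 95% interval 1.09 to 1.11%, counting error only), although they were 50 of 128 sequences. Per library the share was 0.978 to 1.25%. The median predicted sequence had 38.2 CPM over the summed libraries, with quartiles of 15.7 and 149 CPM. The median named sequence had 597 CPM, with quartiles of 74.1 and 4781 CPM. The overlap was nevertheless wide, since 6 predicted sequences lay above the named median and 14 named sequences below the predicted median.

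**Figure D1:**
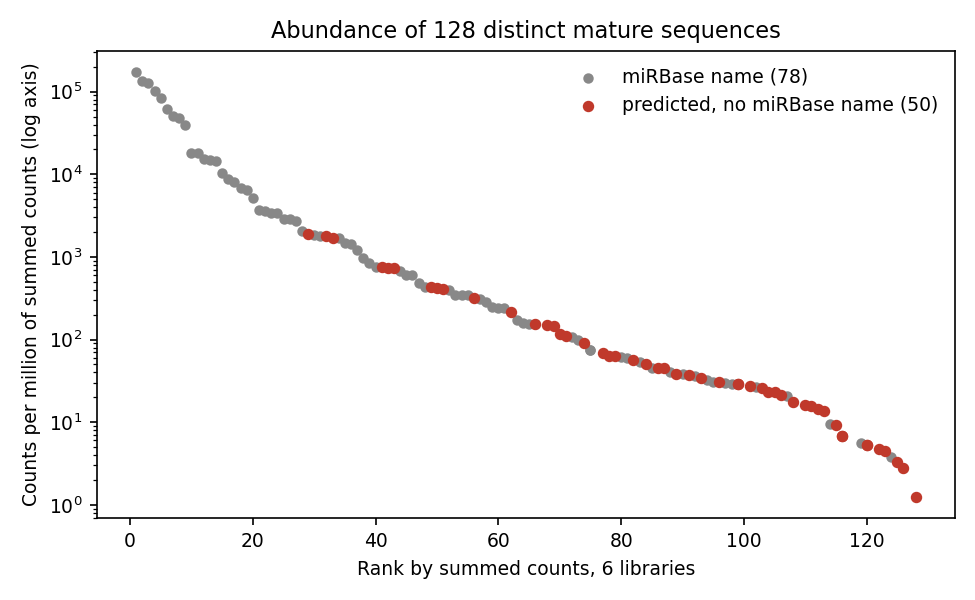
Summed CPM of the 128 distinct sequences (log axis) against their rank, with predicted sequences in red and named sequences in grey. The 28 most abundant sequences are all named, and predicted sequences run from 1912 CPM down to 1.26 CPM at the lowest rank.

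Within the predicted set the counts were concentrated. The 3 most abundant sequences held 49.1% of the predicted counts, the first 10 held 83.5% and the first 20 held 94.1%. Spodoptera_mature_60, listed for 2 precursors, led with 7617 counts and rank 29 among all sequences. In CPM it had 2928, 3458 and 2189 in resistant replicates 1 to 3 and 782, 1397 and 1218 in susceptible replicates 1 to 3. All resistant libraries lay above all susceptible libraries.

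Spodoptera_mature_02 followed with 7051 counts, at 1664, 1935 and 1532 CPM in the resistant and 1720, 1880 and 1867 CPM in the susceptible libraries. Spodoptera_mature_03, the sequence close to miR-2 in its first bases, had 6816 counts, at 1745, 1711 and 1805 CPM in the resistant and 1790, 1610 and 1655 CPM in the susceptible libraries. These were the steadiest of the abundant predicted sequences, with a coefficient of variation over the 6 libraries of 8.72% and 4.45%, and the strains overlapped in both. Spodoptera_mature_04 (2981 counts), 54 (2952), 56 (2883), 06 (1698), 61 (1660), 05 (1618) and 07 (1270) complete the 10 with over 1000 counts.

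The rest were sparse. Between 100 and 1000 counts lay 22 predicted sequences, between 10 and 100 lay 17, and 1 had under 10. The 18 sequences under 100 counts held 1.77% of the predicted counts together. Spodoptera_mature_41, listed for 2 precursors at the top probability class, had 4 counts in resistant replicate 2, 1 in susceptible replicate 1 and 0 in the other libraries, where 0 allows up to 3.20 to 7.73 CPM. Of the 50, 44 were detected in every library, against 77 of 78 named sequences, and 28 (56%) reached 10 counts in every library, against 68 (87.2%).

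Spread between libraries was wider at low counts in both lists. The coefficient of variation over the 6 libraries had a median of 35.6% for predicted and 17.6% for named sequences. Between 10 and 100 counts the medians were 53.2% (n = 17) and 55.7% (n = 7). Between 100 and 1000 counts they were 31.4% (n = 22) and 26.4% (n = 23), and between 1000 and 10000 counts 23.1% (n = 10) and 16.5% (n = 21).

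Most predicted sequences had the length of a Dicer product. A length of 22 nt was found in 29 (58%), against 52.6% of named sequences. There were 8 of 21 nt and 8 of 23 nt. Weighted by counts the peak was flatter, with 32.8% of predicted counts at 22 nt and 33.6% at 23 nt, where Spodoptera_mature_02 and 03 lie, and 17.4% at 24 nt, all from Spodoptera_mature_60. Outside 20 to 24 nt were Spodoptera_mature_36 at 25 nt with 86 counts, and Spodoptera_mature_55 and 59 at 18 nt, the shortest read kept, with 11 and 69 counts.
Spodoptera_mature_36: uGACAAUUgacuuuugacauuggca
Spodoptera_mature_55: aGGGUGAUagcgguggcc
Spodoptera_mature_59: aGCGGUGAcucuggcagu
Both short sequences were in the 77% probability class described below.

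The first base differed between the lists. A U opened 13 of 50 predicted sequences (26%) and 43 of 78 named ones (55.1%). A C opened 17 predicted sequences (34%), which held 50.7% of the predicted counts, against 15.4% of named sequences with 3.54% of the named counts. Of the 10 most abundant predicted sequences, Spodoptera_mature_02, 04, 54, 56, 06, 61 and 07 open with C and Spodoptera_mature_03 with U. Among named sequences the share opening with U was 53.3% for those with B. mori or P. xylostella names, 33.3% for sfr-miR-10458 to sfr-miR-10504 and 71.4% for other S. frugiperda names. GC content had a median of 45.5% in predicted and 46.7% in named sequences.

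miRDeep2 gives each prediction a probability of being a true positive, in steps set by its score. That probability was computed from reads of these same libraries, so its relation to abundance is only described. Taking the highest value among copies, 35 sequences were at 89%, 2 at 86%, 10 at 77% and 3 at 31%. Abundance did not follow the classes. The median was 38.7 CPM at 89% (5 to 7051 counts), 30.5 CPM at 77% and 417 CPM at 31%, and Spearman's rho over the 50 sequences was -0.03.

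**Figure D2:**
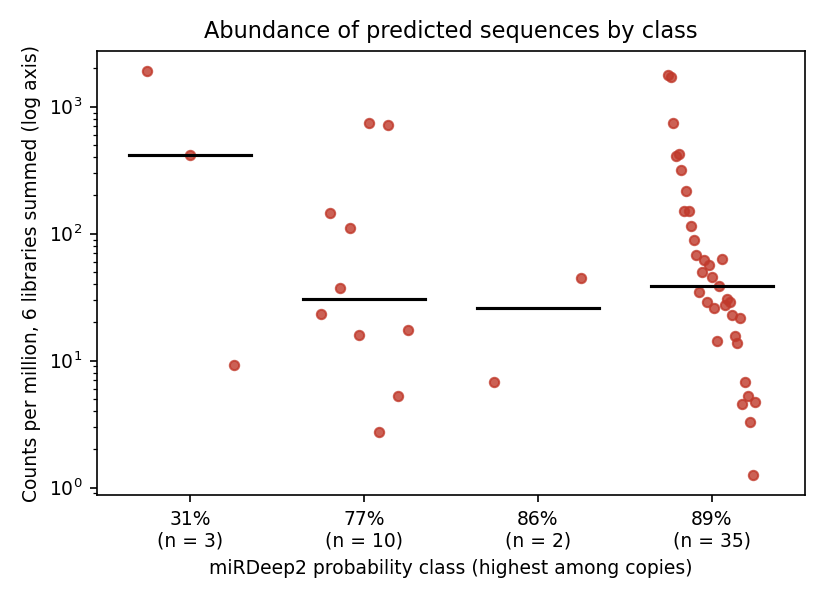
Summed CPM (log axis) of the 50 predicted sequences by miRDeep2 probability class, 1 point per sequence in the order of its number within a class and a black line at the class median. The 31% class holds the single most abundant sequence, at 1912 CPM, and the 89% class spans 1.26 to 1770 CPM.

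Through 1 sequence, the lowest class carried a large part of the signal. Its 3 sequences, Spodoptera_mature_60, 61 and 62, held 21.3% of the predicted counts, at 17.4%, 3.79% and 0.08%. The 15 sequences below 89% held 38.3% of the counts, with a median of 37.7 CPM. Of these, Spodoptera_mature_54 (2952 counts) and Spodoptera_mature_56 (2883 counts) were at 77%. At the same time Spodoptera_mature_41 and Spodoptera_mature_40, with 5 and 13 counts, were listed at 89%. Named precursors were at 89% in 87 of 109 cases.

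Folding the listed precursors gave hairpins in nearly every case. miRDeep2 had proposed them as hairpins, so this outcome was largely fixed by the selection and is no independent support for the predictions. A single hairpin was predicted for 61 of 62, the exception being that of Spodoptera_mature_52, which is 93 nt long, and for 109 of 109 named precursors. Predicted precursors were less stable by length, with a median folding energy of -35.3 kcal/mol per 100 nt against -40.6 for named precursors, and 77.3% against 81.8% of the mature bases paired. In total energy, not scaled by length, the range was wide, from -49.1 kcal/mol for Spodoptera_mature_11 to -7.4 for Spodoptera_mature_36. Spodoptera_mature_11 also has the highest GC content of the set, 81.8%.
Spodoptera_mature_11: gUGAGUGCgucgccgggccccg
By class, the 77% precursors had a median of -41.2 kcal/mol per 100 nt (n = 11), the 89% precursors -34.4 (n = 42) and the 31% precursors -28.8 (n = 4). The mature strand lay on the 5′ arm in 30 precursors and on the 3′ arm in 32.

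Copies were present for 12 of the 50 sequences (24%), each with 2 precursors, against 29 of 78 named sequences (37.2%). The named count includes bantam with its set-aside row and sequences whose listed precursors overlap, as for miR-9a, with starts 42 nt apart. No predicted precursor overlapped another listed one, so these shares do not count the same thing. The 12 predicted sequences held 44.6% of the predicted counts. Because both precursors carry the same counts, the source of the reads cannot be divided between them. In 11 of 12 the copies lay on the same chromosome. The exception was Spodoptera_mature_32, at NC_049711.1:4363427-4363484, whose copy lies on the unplaced scaffold NW_023337186.1 (coordinates of ZJU_Sfru_1.0). Among named sequences it was 28 of 28, with bantam and its set-aside row left out and overlapping precursors included. The precursors were identical in 8 pairs and differed by at most 7 edits, in the pair of Spodoptera_mature_54 and 58.

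The distance between copies was either short or long. The copies of Spodoptera_mature_54, 26 and 20 lie 845, 899 and 2745 nt apart. Those of Spodoptera_mature_60 lie 236324 nt apart, and those of Spodoptera_mature_45 and 40 lie 504192 and 950065 nt apart. For Spodoptera_mature_41, 03, 28, 07 and 15 the distance was 2155623, 3439216, 3995924, 4083716 and 4209575 nt. No pair fell between 10 kb and 200 kb. The strand was the same in 8 of 12 pairs. Long distances also occurred among named sequences, as for miR-31, whose copies lie 1653543 nt apart.

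The predicted precursors were spread over 19 chromosomes or scaffolds, with a concentration on NC_049710.1. That chromosome held 20 of 62 predicted precursors (32.3%), against 12 of 109 named ones. The 18 sequences there held 19.6% of the predicted counts. NC_049729.1 followed with 6 precursors, among them the single precursor of Spodoptera_mature_02 at NC_049729.1:2081223-2081277 on the minus strand. No test was made of these shares, since neighbouring precursors are not independent and chromosome lengths were not used here. Whether precursors lie in exons, introns or between genes was not analysed here.

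Part of the predicted precursors had close neighbours. Another listed precursor started within 10 kb on the same strand for 23 of 62 (37.1%) and for 39 of 109 named precursors (35.8%). The named count includes listed precursors that overlap each other, as for miR-190 and miR-9a, with starts 29 and 42 nt apart. No predicted precursor overlapped another listed one, so the shares do not count the same thing. The 23 predicted precursors belong to 19 sequences and form 11 groups, of which 8 hold predicted precursors only. The groups on NC_049710.1 were 6 of the 11. Spodoptera_mature_62, 43 and 30 lie within 1167 nt at NC_049710.1:3747738-3748904, and Spodoptera_mature_39, 53 and 31 within 4549 nt at NC_049710.1:5555526-5560074.

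**Figure D3:**
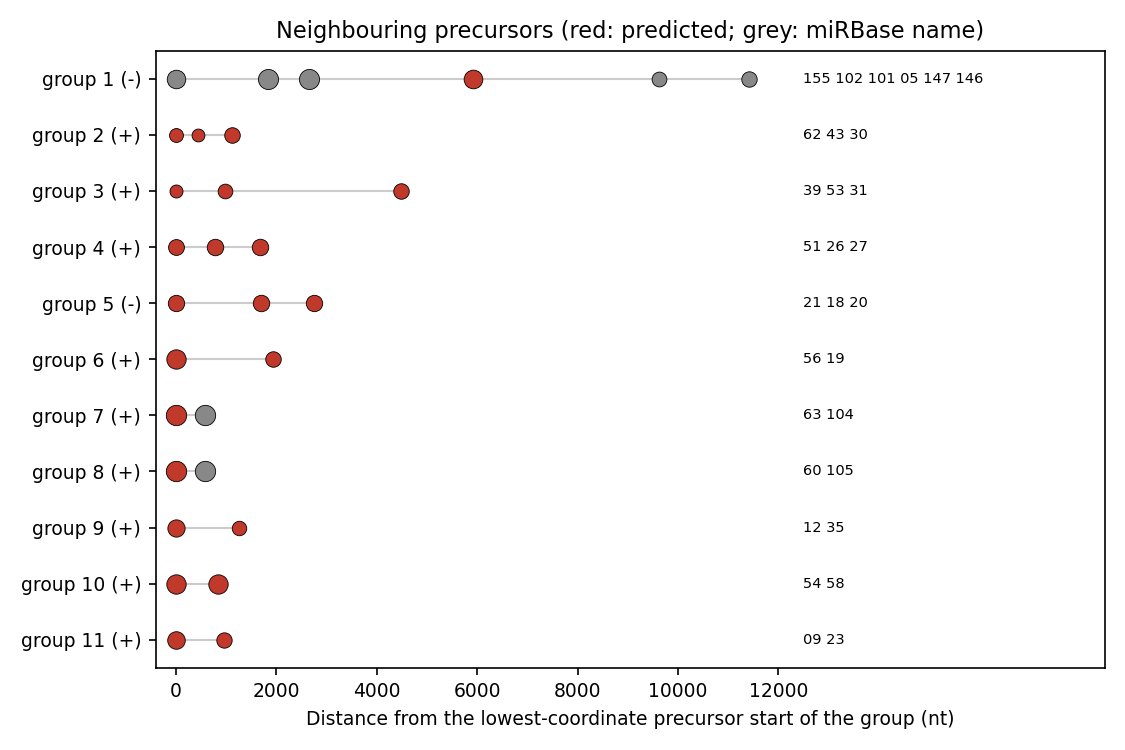
Precursors that neighbour each other within 10 kb on a strand, 1 row per group, placed by the distance (nt) of their starts from the first, with predicted precursors in red and named ones in grey and point size rising with the log of summed counts. The labels on the right are the Spodoptera_mature numbers in order, and 8 of the 11 groups hold predicted precursors only.

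Some groups were families. Spodoptera_mature_51, 26 and 27, all with the seed GAACACA of miR-317, lie within 1738 nt, and Spodoptera_mature_21, 18 and 20, all with the seed CCCUGUA, within 2803 nt. The precursor of Spodoptera_mature_47, which has that seed too, lies on the opposite strand 18221 nt from that of Spodoptera_mature_21. Other groups joined unrelated sequences, such as Spodoptera_mature_56 and 19, Spodoptera_mature_12 and 35, and Spodoptera_mature_09 and 23. Each copy of Spodoptera_mature_60 lies 581 nt, start to start, before a copy of sfr-miR-10460-5p, and Spodoptera_mature_05 lies among sfr-miR-10465-5p, sfr-miR-10494-5p and sfr-miR-10471-5p. The other predicted precursors had no listed precursor within 10 kb on their strand. Over all predicted precursors, grouped ones included, the median distance to the nearest on the same strand was 454334 nt for the 58 that had one. For 102 named precursors, overlapping ones included, it was 301583 nt.

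Between the strains, predicted sequences differed in both directions. edgeR's quasi-likelihood test was run on all sequences, with p adjusted by the Benjamini-Hochberg method, and 39 of the 50 predicted sequences had counts enough to be tested. The 11 untested ones had 5 to 69 counts each. Of the 39, 16 were called at an adjusted p under 0.05 (41%), against 33% of all 112 sequences tested. In the libraries labelled resistant 9 were higher (23.1%, against 23.2% of all) and 7 were lower (17.9%, against 9.82% of all). The share that was higher was that of the whole table. Upper-quartile factors gave 5 higher and 12 lower calls (11 and 24 of all sequences), and mapped reads as library size gave 2 and 13 (3 and 26 of all). DESeq2, which tested 48 predicted sequences, gave 4 and 6 (14 and 11 of all). A minimum of 10 counts in every library, which left 28 to test, gave 3 and 8 (10 and 16 of all).

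Past a 2-fold change were 5 higher (7.14% of all tested were) and 3 lower (3.57% of all). The libraries of the strains did not overlap for 21 of 39 predicted sequences (53.8%), against 44.6% of all. The median log2 fold change was -0.00 for the predicted and 0.05 for all sequences. The median size of the change, regardless of sign, was 0.65 on the log2 scale for predicted, 0.34 for all and 0.24 for the 73 named sequences tested. Predicted sequences were also the less abundant ones, and the part of abundance in this difference was not tested.

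**Figure D4:**
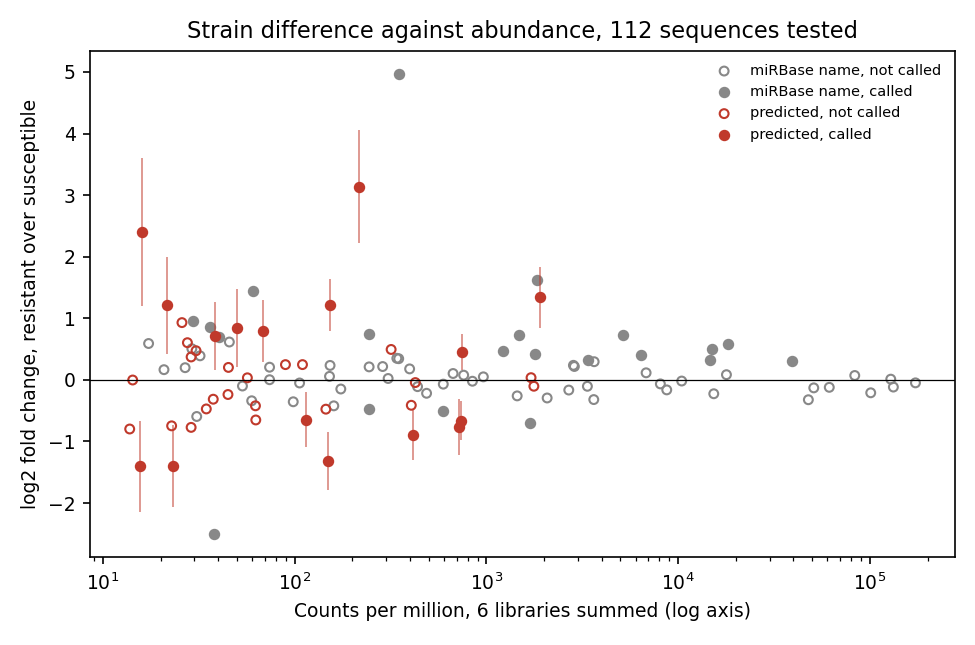
log2 fold change of resistant over susceptible libraries against summed CPM (log axis) for the 112 sequences tested, with predicted sequences in red, named in grey, called ones filled and bars giving the 95% interval of called predicted sequences. Predicted sequences lie towards the left of the axis and reach from -1.40 to 3.14.

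Spodoptera_mature_10 had the largest change of the set.
Spodoptera_mature_10: gUUGAAUAccugacaaaauccu
It comes from a single precursor at NC_049729.1:812147-812208 on the minus strand. It had 576, 383 and 165 CPM in the resistant libraries and 42.0, 48.3 and 39.8 CPM in the susceptible libraries. The susceptible libraries were close together, while the resistant libraries spread over a wide range and all lay above them. The log2 fold change was 3.14 (SE 0.415, edgeR adjusted p = 0.000412).

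Spodoptera_mature_53 had 34.1, 28.6 and 20.6 CPM in the resistant libraries and 5.59, 9.20 and 0 CPM in the susceptible libraries, where the 0 allows up to 4.60 CPM. These are at most 32 counts per library, and the groups did not overlap (log2 fold change 2.41, SE 0.545, edgeR adjusted p = 0.00772). Its size depended on single libraries. Leaving out susceptible replicate 2 gave 3.21 on the log2 scale, and leaving out susceptible replicate 3 gave 1.86, past the test in both cases. Spodoptera_mature_11, the GC-rich sequence above, had 230, 167 and 276 CPM in the resistant and 92.3, 92.0 and 103 CPM in the susceptible libraries. All resistant libraries were above, with a log2 fold change of 1.21 (SE 0.191, edgeR adjusted p = 0.00122). Spodoptera_mature_60 had a log2 fold change of 1.34 (SE 0.222, edgeR adjusted p = 0.00122). With mapped reads as library size, neither Spodoptera_mature_11 nor Spodoptera_mature_60 passed, at log2 fold changes of 0.54 and 0.60 (edgeR adjusted p = 0.262 and 0.164).

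The other higher calls were smaller or rested on few counts. Spodoptera_mature_36 ranged from 14 to 25 counts per resistant library and from 6 to 18 per susceptible library, with a log2 fold change of 1.21 (SE 0.358, edgeR adjusted p = 0.0265). It did not pass without resistant replicate 2, susceptible replicate 1 or susceptible replicate 3, where its edgeR adjusted p was 0.0932, 0.0846 and 0.0754, nor by DESeq2 (adjusted p = 0.0882) or with mapped reads as library size (log2 fold change 0.53, edgeR adjusted p = 0.418). Spodoptera_mature_17, 14, 25 and 04 had log2 fold changes of 0.84, 0.79, 0.72 and 0.46. Each lost its call under 8 to 14 other settings. Spodoptera_mature_25 lost it without any 1 of the 6 libraries, and the others without 4 or 5 of them (edgeR adjusted p from 0.0579 to 0.182). Spodoptera_mature_04 turned to -0.22 with mapped reads as library size.

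**Figure D5:**
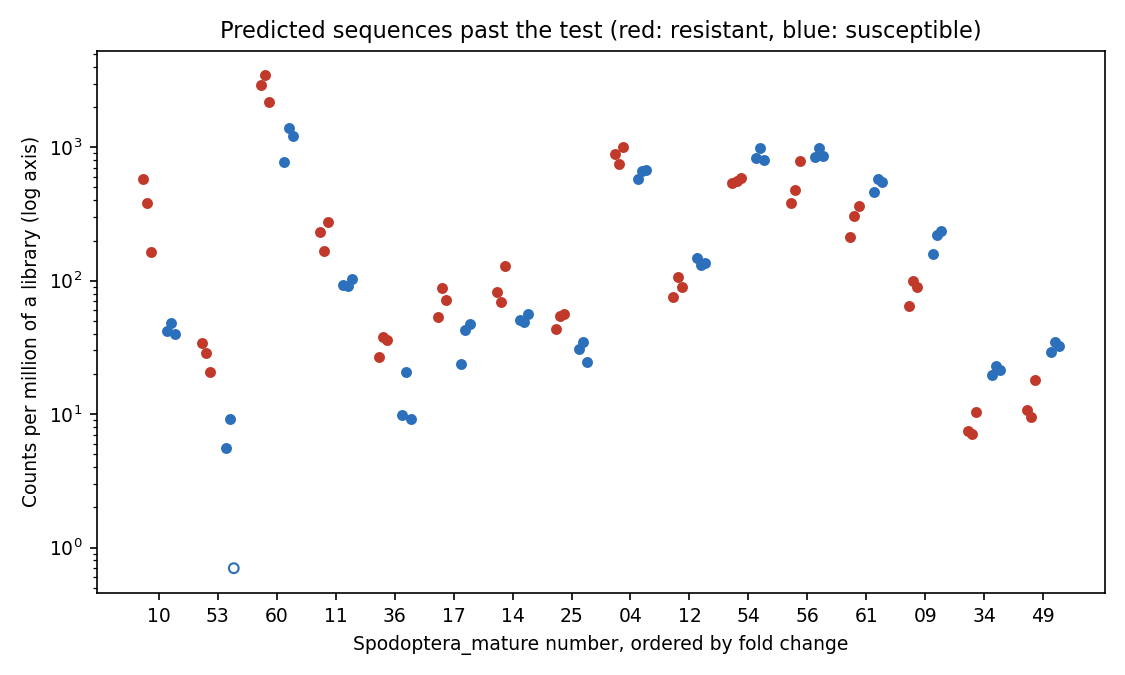
CPM (log axis) in each library for the 16 predicted sequences that passed the test, red for resistant and blue for susceptible libraries, in the order of their fold change, with a count of 0 drawn as an open circle at the bottom. The 9 on the left were higher in the libraries labelled resistant, led by Spodoptera_mature_10, and the 7 on the right were lower.

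Among the lower calls, Spodoptera_mature_09 had 65.1, 100 and 90.1 CPM in the resistant and 158, 221 and 236 CPM in the susceptible libraries.
Spodoptera_mature_09: cCAUCCCUcacaugauguaacu
Spodoptera_mature_23: aUACCAGAaaauggccaggaga
All resistant libraries lay below all susceptible ones (log2 fold change -1.32, SE 0.215, edgeR adjusted p = 0.00122). Its neighbour Spodoptera_mature_23, which starts 957 nt downstream on the same strand of NC_049725.1, had 36.3, 30.9 and 38.6 CPM in the resistant and 28.0, 17.2 and 9.20 CPM in the susceptible libraries. Here the resistant libraries lay above, without passing the test (log2 fold change 0.93, SE 0.364, edgeR adjusted p = 0.0679).

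The ratio of counts of Spodoptera_mature_09 to Spodoptera_mature_23 was 1.79, 3.23 and 2.33 in the resistant and 5.65, 12.8 and 25.7 in the susceptible libraries. The groups did not overlap (exact permutation test on the log2 ratio, two-sided p = 0.1, the smallest that 3 libraries against 3 allow, and 0.6 when adjusted over 6 pairs). The pair was singled out after its values had been seen. In 2 other groups of unrelated predicted sequences the neighbours had closer values. Spodoptera_mature_56 and 19 had log2 fold changes of -0.77 each, the first called and the second at an edgeR adjusted p of 0.0595. Spodoptera_mature_12 and 35 had -0.65 and -0.80, the first called and the second at an edgeR adjusted p of 0.182. The log2 ratio of counts within these pairs differed between strains by -0.05 and 0.30. The exact permutation test gave two-sided p = 1 and 0.8, or 1 and 0.96 adjusted over the 6 pairs. Spodoptera_mature_60 and its named neighbour sfr-miR-10460-5p had 1.34 and 1.62, both called higher (edgeR adjusted p = 0.00122 and 0.000953). Their log2 ratio differed between strains by -0.34 (exact permutation test, two-sided p = 0.2, or 0.6 adjusted over the 6 pairs). No pair could have passed after adjustment, so these p-values do not show that the ratios are equal. Spodoptera_mature_35 had only 2 to 15 counts per library. In the group of Spodoptera_mature_39, 53 and 31 the values were apart, at 2.41 for Spodoptera_mature_53 and 0.37 for Spodoptera_mature_31 (edgeR adjusted p = 0.432), while Spodoptera_mature_39 was not tested. Spodoptera_mature_05 had -0.41, without a call, in a group of values that were mostly small. The sfr-miR-10465-5p sequence of Spodoptera_mature_101 and 102 had -0.26, sfr-miR-10494-5p had 0.59 and sfr-miR-10471-5p had 0.20, all without a call. Only the sfr-miR-10465-5p of Spodoptera_mature_155 stood apart, at 4.97.

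Abundant sequences were also among the lower calls. Spodoptera_mature_61, of the 31% class, had 211, 307 and 366 CPM in the resistant and 463, 574 and 553 CPM in the susceptible libraries. Spodoptera_mature_56 had 381, 476 and 783 CPM in the resistant and 852, 979 and 860 CPM in the susceptible libraries. Spodoptera_mature_54 had 543, 559 and 585 CPM in the resistant and 829, 993 and 803 CPM in the susceptible libraries. In each of these every resistant library lay below every susceptible one, with log2 fold changes of -0.89 (SE 0.185), -0.77 (SE 0.206) and -0.66 (SE 0.141). The edgeR adjusted p of Spodoptera_mature_56 was 0.0191, and 0.058 without resistant replicate 2.

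Spodoptera_mature_34 and 49 had few counts, with 3 to 10 counts in each resistant library and 14 to 30 in each susceptible library. Their log2 fold changes were both -1.40 (SE 0.335 and 0.305, edgeR adjusted p = 0.0103 and 0.00628). Without resistant replicate 1 neither passed the test (edgeR adjusted p = 0.0972 and 0.0538), and Spodoptera_mature_34 did not pass by DESeq2 (adjusted p = 0.0882). Spodoptera_mature_12, the last of the lower calls, had a log2 fold change of -0.65 (SE 0.201, edgeR adjusted p = 0.033), and its adjusted p was 0.106, 0.0641, 0.0846 and 0.0743 without resistant replicate 1, resistant replicate 3, susceptible replicate 1 and susceptible replicate 2.

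The calls were found in each large probability class. At 89%, 7 of 29 tested sequences were higher and 3 lower, and at 77%, 1 of 7 was higher and 3 lower, beside 23.2% higher and 9.82% lower of all sequences tested. These classes are small, and no difference between them was tested. Of the tested sequences at 31%, Spodoptera_mature_60 was higher and Spodoptera_mature_61 lower. Members of the seed families stayed without a call. Spodoptera_mature_18, 20, 47, 26, 51 and 28 had log2 fold changes of -0.42, 0.03, -0.24, -0.65, -0.31 and 0.60, with edgeR adjusted p from 0.0524 upwards.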

How the data were processed

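Small RNA was sequenced from 6 libraries of whole larvae. Reads of 50 bp were trimmed by the authors (cutadapt, minimum 18 nt), placed on the genome ZJU_Sfru_1.0 and assigned with miRDeep2 to miRBase precursors or to predicted ones. The deposited table holds raw read counts, RPM and a signal that the authors normalized with DESeq2. The authors describe RPM as reads per 1000000 mapped reads. Spodoptera_mature_60 had a mean of 958 RPM and 1995 CPM, and the denominator of RPM was not checked against the mapped reads used as library size. Only counts were tested, RPM served for 1 alternative and the normalized signal was not used. Columns were matched to libraries through the run names in the labels. Probability classes, precursors and coordinates are those listed with the predictions.

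Each distinct sequence was taken once. TMM factors and edgeR 4.0.16 in R 4.3.3 were used for the test (filterByExpr, glmQLFit, glmQLFTest, strain as the only term, Benjamini-Hochberg over all sequences tested). The procedure was tested on simulated counts with the same spread setting for every sequence and as many raised as lowered. That test does not cover the choice of scaling, on which the calls depend. CPM is without TMM, and intervals are at 95%. Precursors were folded with RNAfold of ViennaRNA 2.7.2 at 37 °C. Libraries held 388273 to 937481 counts, so 1 count equals 1.07 to 2.58 CPM. Pools were separate, so p-values measure the spread between pools.

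Members and lists were chosen with earlier results of these data known. Sequences were named if among the 10 most abundant, copied, neighboured within 10 kb, sharing a seed or lying within 3 edits of another sequence, called, under 10 counts, outside 20 to 24 nt, or holding GUUCGA. Spodoptera_mature_52, the run of Spodoptera_mature_60 shared with sfr-miR-10460-5p, the match over bases 2 to 7 and the pair ratios were added after the values had been seen. Alternatives were DESeq2 1.42.0, other scalings and filters, copies kept, sequences within 1 edit summed, a replicate block, and each library left out.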

Additional observations from a re-analysis of the deposited data

How the results depend on the processing

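The share of counts was 1.16% with copies included, where it had been 1.10%, and 1.08 to 1.13% with any library left out. Median abundance was 27.9 CPM with copies included and 18.8 by the deposited RPM, whose totals are larger, against 38.2 CPM and 36.6 to 40.1 CPM with a library left out. Spearman's rho of probability and abundance was -0.11 with copies included, against -0.03, and -0.04 to -0.02 with a library left out. Neighbouring precursors were 21 with a 2 kb window and 23 with 50 kb or on either strand. Against 9 higher and 7 lower calls, DESeq2 gave 4 higher, upper-quartile factors 5 and 12, mapped reads 2 and 13, and a minimum of 10 counts 3 higher. Leaving out a library gave 5 to 7 higher and 4 to 8 lower, with 5 higher without susceptible replicate 2 or 3 and 4 lower without resistant replicate 1. Upper-quartile factors and mapped reads set the median of all sequences to -0.18 and -0.65 on the log2 scale, against 0.05, and the cause of the other moves was not tested. With mapped reads, Spodoptera_mature_04 had -0.22. Of 236 values of called sequences under these settings, 181 kept direction and call and 54 lost the call only. Spodoptera_mature_09, 10, 53, 54 and 61 kept both under every setting that tested them. A replicate block gave 8 higher and 8 lower. The main test did not take the replicate numbers as pairs. Deviations of same-numbered libraries correlated at 0.04, 0.29 and 0.27, and those of differently numbered libraries from -0.36 to 0.12. Resistant replicate 1 correlated best with susceptible replicate 2. Deviations of 3 libraries from their own mean are tied to each other, so these correlations cannot decide whether the numbers pair the libraries. With 1 count worth up to 2.58 CPM, the 11 sequences of at most 69 counts could not be tested in the main analysis.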

Other observations

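The first base and the direction of the strain difference were set side by side after the values had been seen, with no test. Of 14 tested predicted sequences that open with C, 6 were lower in the libraries labelled resistant and 1 was higher. Of 11 that open with A, 4 were higher and 0 lower by edgeR, of 9 that open with U, 2 were higher and 1 lower, and of 5 that open with G, 2 were higher and 0 lower. Over all sequences tested, 23.2% were higher and 9.82% lower. Of 11 named sequences tested that open with C, 2 were higher and 2 lower. The groups are small, and nothing is read from them about the first base.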
